A study of Brachypodium distachyon with 35 samples.

Results

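BdbZIP10 is 1 of 96 basic leucine zipper (bZIP) genes of the grass Brachypodium distachyon with transcript levels read out by qPCR (quantitative real-time PCR). It was chosen from these same values, because its level relative to the control was low under H2O2, PEG and NaCl and high under Mn and Pb, so those values are given as a description and were not tested. The gene is locus bradi1g29920, on chromosome 1 from 25408086 to 25411112 in the study's gene list, whose genome build is not given in the sources used here. It has 2 introns and encodes a protein of 153 amino acids.

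bZIP proteins bind DNA through a basic region and pair with each other through a leucine zipper. In the list of syntenic genes BdbZIP10 is matched to OsbZIP55 and OsbZIP56 of rice. OsbZIP55 is known in rice as OsFD2, a relative of the Arabidopsis protein FD, which works with the mobile flowering signal florigen at the shoot apex. In rice, FD-like proteins join florigen through 14-3-3 adaptor proteins, and OsFD2 has been linked to leaf development.

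The samples were seedlings of the line Bd21-3 given 1 of 14 treatments, 4 organs (root, stem, leaf and early spikelet) and 3 untreated controls (CK1, CK2 and CK3), with 1 sample per condition. The environmental treatments were cold (4 °C), heat (45 °C), H2O2 (10 mM), PEG (20%) and NaCl (200 mM), each for 1 h and 6 h. PEG (polyethylene glycol) imposes a water deficit. The heavy metals were Cu (0.05 mM CuSO4), Zn (0.5 mM ZnSO4), Mn (1 mM MnCl2), Cd (0.07 mM CdCl2) and Pb (0.75 mM PbCl2), each for 6 h and 24 h. The phytohormones were SA (salicylic acid, 1 mM), 6-BA (6-benzylaminopurine, a cytokinin, 20 µM), ABA (abscisic acid, 100 µM) and MeJA (methyl jasmonate, 100 µM), each for 1 h and 6 h. By the labels seedlings were 20 days old and spikelets came from plants of 40 days. The methods of the study give younger ages for both. The labels set the metals and NaCl for 6 h against CK3. ABA and MeJA have CK2 as their control, and all other treated samples and the organs have CK1. The Ct values of PEG-1h and H2O2-6h were identical in all 97 rows of the table, and PEG-1h was left out, which leaves 27 treated samples and 34 samples in all.

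Ct is the PCR cycle at which product crosses a detection threshold, so a Ct that is 1 lower stands for about 2-fold more template. The log2 change of a gene was its Ct set against that of the reference gene BdGAPD, a glyceraldehyde-3-phosphate dehydrogenase of glycolysis, and then against the labelled control. A positive value means more transcript in the treated sample than in the control. All directions below come from Ct, because the fold changes deposited for the environmental and hormone samples run with Ct and so in the opposite direction to transcript amount. With 1 sample per condition no replicate spread exists. A measure of technical error came from 8 pairs of genes listed with identical primers, whose log2 changes gave an error SD of 0.97 for a single value. BdbZIP10 is in none of these pairs, and their mean Ct ran from 23.7 to 32.3, all earlier than that of BdbZIP10. Over the 48 of 216 pair values with a mean Ct of 30 or more the error SD was 1.37, which is the nearer, though rough, guide for a gene as late as BdbZIP10. The latest pair (mean Ct 32.3) differed by a median of 2.27 in log2 change, and every other pair had a mean Ct of 29.2 or lower. How far the 1.37 rests on that pair was not tested.

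BdbZIP10 was one of the weakest assays of the family. Its Ct lay between 30.9 and 38.9 (median 36.4, 34 samples) in a PCR of 40 cycles, and reached 35 or more in 22 of them. By mean Ct (35.7) it was the number 3 latest of the 96 genes. It was the latest gene of all in 8 samples and had at most 4 later genes in 25. The Mn samples stood apart from the rest at Ct 30.9 (Mn-6h) and 31.2 (Mn-24h), and the next earliest value was 33.0 in Cu-24h.

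**Figure D1:**
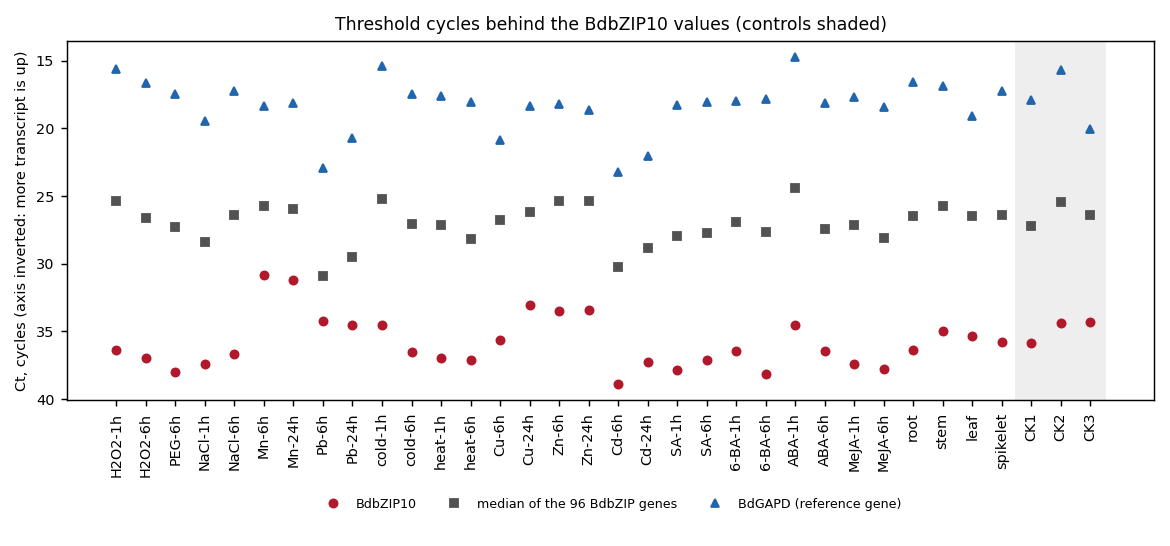
Threshold cycle (Ct) of BdbZIP10, of the median BdbZIP gene and of BdGAPD in 34 samples, 1 point per sample, with the axis inverted and the untreated controls shaded at the right. BdbZIP10 lies between 30.9 and 38.9 cycles, with both Mn samples at the top of its range. BdGAPD is late in Pb, Cd, Cu-6h and CK3.

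BdbZIP10 was low under the oxidant H2O2 and under PEG. Its Ct was 36.4 in H2O2-1h, 37.0 in H2O2-6h and 38.0 in PEG-6h, against 35.8 in CK1. The log2 change was -2.83 in H2O2-1h, -2.38 in H2O2-6h and -2.62 in PEG-6h. In all 3 samples BdbZIP10 was the latest of the 96 genes. The median gene changed by -0.25, -0.41 and -0.18 in H2O2-1h, H2O2-6h and PEG-6h.

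Only 5, 3 and 1 of the 96 genes had a lower value than BdbZIP10 in H2O2-1h, H2O2-6h and PEG-6h. At most 0.5-fold of CK1 were 27.1% of the genes in H2O2-1h, 29.2% in H2O2-6h and 25.0% in PEG-6h. The gene's own Ct minus that in CK1 was 0.52 in H2O2-1h, 1.16 in H2O2-6h and 2.16 in PEG-6h. The same difference for BdGAPD was -2.31, -1.22 and -0.46 cycles in these samples, so for H2O2-1h most of the log2 change came with the reference gene and for PEG-6h most came with BdbZIP10.

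NaCl gave a low value at 6 h only, and its size depended on the control. BdbZIP10 had a Ct of 37.4 in NaCl-1h, against 35.8 in CK1, and a log2 change of 0.02, with BdGAPD late by 1.56 cycles. In NaCl-6h its Ct was 36.6, against 34.3 in CK3, and the log2 change was -5.18, the lowest of all samples. In that sample 71.9% of the 96 genes were at most 0.5-fold of CK3 and the median gene changed by -2.02. Against CK1 the same NaCl-6h Ct gave -1.44. The deposited fold changes of NaCl-6h followed the Ct difference from CK1 in 92 of 96 genes and that from CK3 in 4, although the labels and the column's own name give CK3.

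Over the 5 samples of H2O2, PEG and NaCl the mean log2 change was -2.60 ± 1.85 (SD between samples, which differ in treatment and time and are not replicates), and 4 of 5 were at most 0.5-fold. The mean lay at rank 94 of 96, counted from the highest, where 30.2% of genes had a mean of -1 or below. With CK1 as the control of NaCl-6h it was -1.85.

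**Figure D2:**
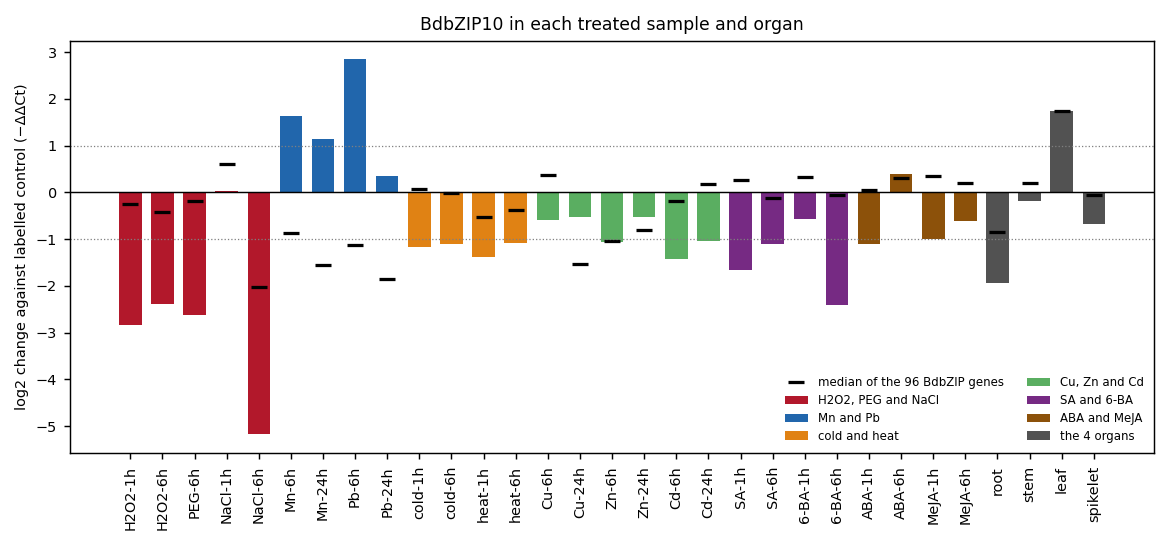
Log2 change of BdbZIP10 against the labelled control (bars, 1 sample each) with the median of the 96 genes (black dashes) and dotted lines at 2-fold. Bars of H2O2, PEG-6h and NaCl-6h lie between -2.38 and -5.18, those of Mn and Pb between 0.35 and 2.84, and the leaf bar equals the median gene.

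Mn and Pb gave the highest levels. In Mn-6h the Ct of BdbZIP10 was 30.9 and in Mn-24h 31.2, against 34.3 in CK3. The log2 change was 1.64 in Mn-6h and 1.14 in Mn-24h, which are 3.12-fold and 2.20-fold. The Mn-24h value lay within the error SD of 1.37 for late Ct, and that of Mn-6h was little beyond it. In Mn-6h and Mn-24h 9.38% and 5.21% of the family passed 2-fold upwards, and BdbZIP10 had rank 4 in both. The median gene changed by -0.88 in Mn-6h and -1.55 in Mn-24h, so relative to BdGAPD BdbZIP10 went the other way from the median gene. BdGAPD came earlier under Mn, with a Ct difference from CK3 of -1.77 and -1.94, and without it the change of BdbZIP10 was larger, at 3.41 and 3.08. The median Ct of the 96 genes also came earlier than in CK3, by -0.68 and -0.49 cycles. By Ct alone the median gene thus moved the same way as BdbZIP10, but by less.

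Under Pb the high value came without an earlier Ct. The Ct of BdbZIP10 was 34.2 in Pb-6h and 34.5 in Pb-24h, against 34.3 in CK3, a difference of -0.03 and 0.27 cycles. BdGAPD was later by 2.81 cycles in Pb-6h and 0.62 in Pb-24h, and the median BdbZIP gene by 4.51 and 3.08. The log2 change was therefore 2.84 (7.16-fold) in Pb-6h and 0.35 (1.27-fold) in Pb-24h. The Pb-6h value lay beyond the error SD of 1.37 for late Ct and that of Pb-24h within it. Rank was 5 of 96 in Pb-6h, where 11.5% of genes passed 2-fold upwards, and 12 in Pb-24h. BdbZIP10 thus had the Ct of the control in samples in which most genes and the reference were late. Whether the total template was lower in the Pb samples was not tested.

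The mean over the 4 Mn and Pb samples was 1.49 ± 1.04 (SD between samples), rank 4 of 96, with 5.21% of genes at a mean of 1 or above and 61.5% at -1 or below. Above 0 in all 4 samples were 6 genes. At most 0.5-fold in both H2O2 samples and PEG-6h were 12 genes, and BdbZIP10 was the 1 gene in both sets. The mean under Mn and Pb minus that under H2O2, PEG and NaCl was 4.09, against a median of -0.90 over the 96 genes, and the next gene, BdbZIP29, had 2.19. BdbZIP10 was also the 1 gene (1.04%) with means past 2-fold in both directions. These counts restate how the gene was picked.

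Under the other metals BdbZIP10 lay below CK3. Under Cu its Ct was 35.6 at 6 h and 33.0 at 24 h, and the log2 change against CK3 was -0.60 and -0.52. Zn gave -1.06 at 6 h and -0.53 at 24 h. Cd gave -1.43 at 6 h and -1.04 at 24 h, with the latest Ct of the series (38.9) in Cd-6h. All 6 values lay below 0, and only that of Cd-6h lay further from it than the error SD of 1.37 for late Ct. The share of genes at most 0.5-fold was 54.2% in Zn-6h, 30.2% in Cd-6h and 30.2% in Cd-24h, the 3 samples in which BdbZIP10 was past that threshold. In Cu-24h BdbZIP10 ranked 21 of 96, since the median gene there changed by -1.53.

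The choice of control moves these numbers as a block. CK3 and the metal samples differed from the rest in the level of BdbZIP10 relative to BdGAPD, as Ct of BdGAPD minus Ct of BdbZIP10. The 10 metal samples and CK3 held ranks 1 to 11 of 34, from -11.35 in Pb-6h to -15.62 in Cd-6h, while leaf had -16.19 and every other sample lay at -17.91 or below. CK3 itself had -14.19, against -17.93 in CK1 and -18.69 in CK2. The difference of CK3 from CK1 was 3.74, with a median of 2.59 over the 96 genes and rank 30 for BdbZIP10. Its Ct was 1.56 cycles earlier in CK3 and that of BdGAPD was 2.18 cycles later. CK3 is a single sample, and whether it and the metal samples were handled apart from the others was not tested.

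Against CK1, Mn-6h had a log2 change of 5.38, Mn-24h 4.88, Pb-6h 6.58 and Pb-24h 4.09. The Cu, Zn and Cd samples then averaged 2.88, between 2.31 and 3.22, where against CK3 they averaged -0.86 ± 0.37 (SD between samples). The sign of BdbZIP10 under Cu, Zn and Cd thus turned with the control. The gap between Mn and Pb and the other metals did not, because all 10 samples share CK3.

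A level that uses neither BdGAPD nor a control is the median Ct of the 96 genes minus the Ct of BdbZIP10. On this scale the 4 highest of 34 samples were Pb-6h (-3.31), Pb-24h (-5.04), Mn-6h (-5.12) and Mn-24h (-5.26). The next was Cu-24h at -6.83 and then CK3 at -7.85. The 4 lowest were H2O2-1h (-10.97), PEG-6h (-10.69), 6-BA-6h (-10.54) and H2O2-6h (-10.38). CK1 had -8.61 and CK2 -8.96.

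In this order the gap to the next sample was 1.73 below Pb-6h and 1.56 below Mn-24h, both set by samples that chose the gene, and 1.03 below Cu-24h, which is under the error SD of 1.37 for late Ct. From CK3 downwards no neighbours differed beyond the error SD of 0.97 or 1.37, so the order of neighbours in that run is not resolved. Its ends, CK3 and H2O2-1h, lay further apart than either error SD. Set against CK1 on this scale, H2O2-1h (-2.365), PEG-6h (-2.08), H2O2-6h (-1.77) and 6-BA-6h (-1.925) were beyond 1.37. Of these only 6-BA-6h played no part in choosing the gene.

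**Figure D3:**
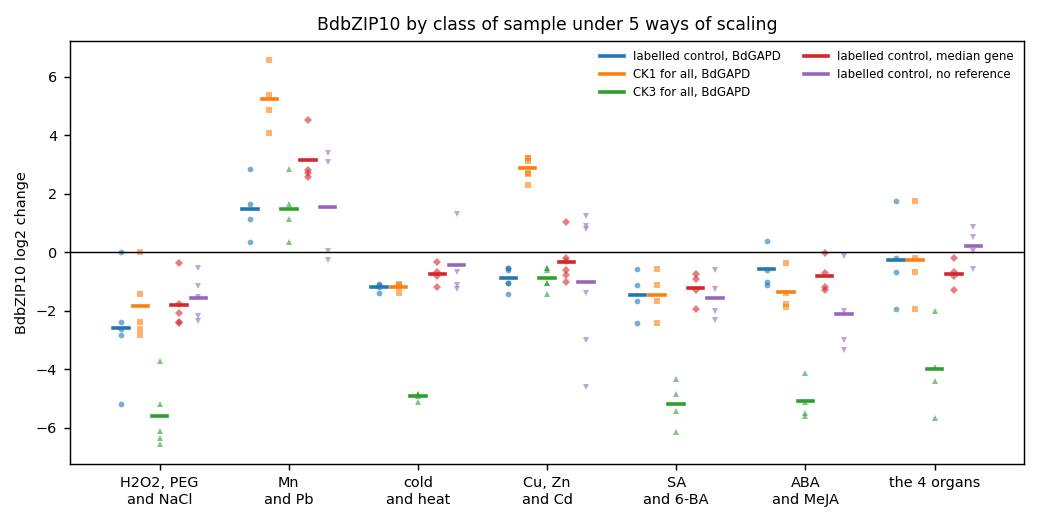
Log2 change of BdbZIP10 by class of sample under 5 combinations of control and reference, with 1 point per sample and a bar at the mean. Means of H2O2, PEG and NaCl stay below 0 (-1.55 to -5.59) and those of Mn and Pb above 0 (1.49 to 5.23), while that of Cu, Zn and Cd lies at -0.86 against CK3 and 2.88 against CK1.

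Under cold and heat BdbZIP10 was slightly and evenly lower. The log2 change was -1.17 in cold-1h, -1.11 in cold-6h, -1.38 in heat-1h and -1.09 in heat-6h. All 4 were at most 0.5-fold, as were 19.8%, 24.0%, 37.5% and 34.4% of the 96 genes. The spread between the samples (SD 0.13) was below the error SD, and the values between -1.38 and -1.09 stand beside an error SD of 0.97 over all pairs and 1.37 at late Ct. Ranks ran from 65 to 79 of 96. In cold-1h the Ct of BdbZIP10 was 34.5, against 35.8 in CK1, so without BdGAPD that sample would lie above CK1 by 1.32. With the median gene as the reference the class mean was -0.75.

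SA, a signal of defence, gave -1.67 at 1 h and -1.11 at 6 h, where 21.9% and 26.0% of genes were at most 0.5-fold. The cytokinin 6-BA gave -0.58 at 1 h and -2.41 at 6 h. BdbZIP10 was the latest of all genes in SA-1h (Ct 37.8) and in 6-BA-6h (Ct 38.2), against 35.8 in CK1. In 6-BA-6h its rank was 91 of 96, with 22.9% of genes at most 0.5-fold, so the value there was as low as that in H2O2-6h, which lay at -2.38. The mean over SA and 6-BA was -1.44 ± 0.78 (SD between samples) and ranked 86 of 96.

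ABA, the hormone of water stress, gave -1.10 at 1 h and 0.39 at 6 h. MeJA, a wound and defence signal, gave a log2 change of -0.62 at 6 h, and at 1 h the level was 0.5-fold of CK2, on the threshold. Of the 96 genes 9.38% in ABA-1h and 2.08% in MeJA-1h were at most 0.5-fold, and BdbZIP10 was the number 89 and number 95 of 96 in these samples. The Ct of BdbZIP10 was 34.5 in ABA-1h, 36.4 in ABA-6h, 37.4 in MeJA-1h and 37.8 in MeJA-6h, against 34.4 in CK2. All 4 values were smaller than the error SD of 1.37 for late Ct.

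Over the 27 treated samples, 16 had BdbZIP10 at most 0.5-fold and 3 at least 2-fold (Mn-6h, Mn-24h and Pb-6h). Among the 16, cold-1h, cold-6h, heat-6h, Zn-6h, Cd-24h, SA-6h, ABA-1h and MeJA-1h lay within the error SD of 1.37 for late Ct. Mn-24h (1.14) among the 3 also lay within it. The 2-fold thresholds are narrower than that error, so both counts are rough. With the median gene as the reference in place of BdGAPD the counts at most 0.5-fold and at least 2-fold were 10 and 5.

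BdbZIP10 was a late assay in every organ. Root had a Ct of 36.4, stem 35.0, leaf 35.3 and spikelet 35.8, and CK1 seedlings had 35.8. The log2 change against CK1 was -1.93 for root, -0.19 for stem, 1.74 for leaf and -0.67 for spikelet. In leaf 71.9% of genes passed 2-fold upwards, and BdbZIP10 at 1.74 equalled the median gene (1.74, rank 48), with BdGAPD 1.21 cycles later in leaf than in CK1. At most 0.5-fold in root were 46.9%, and BdbZIP10 ranked 72. Relative to the median gene the organs spanned only -9.90 in root to -8.81 in leaf, a range smaller than the error SD of 1.37 for late Ct. Ct minus that of CK1 was 0.57 for root, -0.86 for stem, -0.53 for leaf and -0.03 for spikelet.

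The later and the earlier time point were compared over the 9 treatments that played no part in choosing the gene (cold, heat, Cu, Zn, Cd, SA, 6-BA, ABA and MeJA). The level relative to BdGAPD was higher at the later time in 8 of 9. The size was small in most, with 0.06 in cold, 0.08 in Cu, 0.29 in heat, 0.38 in MeJA, 0.39 in Cd, 0.53 in Zn and 0.56 in SA. The widest values were 1.49 in ABA and -1.83 in 6-BA. The mean was 0.22 ± 0.88 (SD, n = 9), and an exact two-sided sign-flip permutation test gave p = 0.48, where the smallest p the design allows is 0.0039. Without 6-BA, the 1 treatment that was lower at the later time, the mean was 0.47 and the exact sign-flip p 0.0078. All 8 signs then agreed, so this p is the smallest that 8 treatments allow and was fixed by the omission. The call thus rests on 1 treatment, which was picked out by its value. With no reference gene, cold, heat, 6-BA, ABA and MeJA were lower at the later time and Cu, Zn, Cd and SA higher. The ABA difference was then -1.91, and the mean was -0.12 (exact sign-flip p = 0.86).

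Of the treatments used in choosing the gene, H2O2 had a later minus earlier difference of 0.45, NaCl -1.46, Mn -0.50 and Pb -2.49. Relative to BdGAPD the Pb difference was the widest of the 13 and was larger than that of the median gene (-0.73). With no reference gene H2O2 had -0.64, NaCl 0.74, Mn -0.33 and Pb -0.30. BdGAPD itself had a Ct of 22.9 in Pb-6h and 20.7 in Pb-24h.

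**Figure D4:**
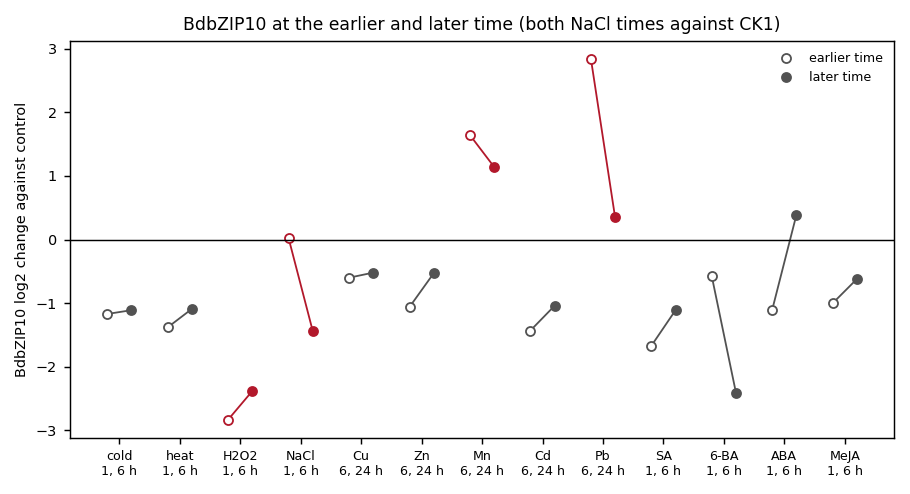
Log2 change of BdbZIP10 at the earlier (open) and later (filled) time of 13 treatments, each against its labelled control except NaCl-6h, drawn against CK1 like NaCl-1h, and red marks treatments used in choosing the gene. Most lines are short, and the longest are Pb (2.84 at 6 h, 0.35 at 24 h) and 6-BA (-0.58 at 1 h, -2.41 at 6 h).

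Likeness to BdbZIP10 was measured by Pearson's r across 34 samples on the level relative to the median gene. Samples share the plate layout and the median, so r is a description. The most alike were BdbZIP72 (r = 0.71), BdbZIP59 (0.67) and BdbZIP57 (0.63), and the most opposed were BdbZIP26 (-0.74), BdbZIP22 (-0.70) and BdbZIP17 (-0.67). BdbZIP72 and BdbZIP59 belong to the same intron pattern as BdbZIP10, named b, as does BdbZIP26. Without the Mn and Pb samples r was 0.56 for BdbZIP72, 0.58 for BdbZIP59 and 0.35 for BdbZIP57, and -0.69 for BdbZIP26. On the log2 changes of the 27 treated samples r was 0.53 for BdbZIP72, 0.43 for BdbZIP59 and 0.40 for BdbZIP57. It was -0.41 for BdbZIP26, -0.17 for BdbZIP22 and -0.27 for BdbZIP17.

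On the scale of BdGAPD and the labelled control, the mean log2 change under Mn and Pb was 0.10 for BdbZIP72, -0.73 for BdbZIP59 and -0.66 for BdbZIP57, against 1.49 for BdbZIP10. Under H2O2, PEG and NaCl their means were -1.19, -1.89 and -1.33. The opposed gene BdbZIP17 had means of 1.38 under Mn and Pb and 1.86 under H2O2, PEG and NaCl.

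The 24 genes of intron pattern b, BdbZIP10 among them, give a wider set. Under Mn and Pb 13 of 24 had a mean of -1 or below and 2 of 24 a mean of 1 or above, with a median of -1.19, beside 59 and 5 of all 96 genes and a median of -1.34. Under H2O2, PEG and NaCl 4 of 24 were at -1 or below and 2 at 1 or above (median -0.29), beside 29 and 11 of 96 (median -0.41). BdbZIP10 is thus 1 of 2 genes of its pattern with a mean of 1 or above under Mn and Pb.

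BdbZIP73 and BdbZIP88 were taken as relatives from protein sequence. Both are short (146 and 186 amino acids), with a basic C-terminal end that holds Ser or Thr as in FD proteins. In the list of syntenic genes the row labelled BdbZIP73 names OsbZIP88 of rice. The row labelled BdbZIP88 names AtbZIP14, the Arabidopsis FD gene. Gene labels in that list are out of line with their rows in places, so the rice partners of these relatives are not settled here. Neither is a late assay like BdbZIP10. Ct ran from 20.6 to 33.0 for BdbZIP73 and from 22.9 to 30.8 for BdbZIP88, and neither reached 35 in any sample. Under Mn and Pb the mean log2 change against CK3 was -2.20 for BdbZIP73 and -3.46 for BdbZIP88, against 1.49 for BdbZIP10. For BdbZIP88 the sign turned with the control. Its level relative to BdGAPD was -6.63 to -5.32 under Mn and Pb, -2.78 in CK3 and -9.74 in CK1. Against CK1 it was thus higher, as was BdbZIP10. BdbZIP73, at -12.01 to -8.48, lay below both CK3 (-8.32) and CK1 (-6.79). Under H2O2, PEG and NaCl the mean log2 change was 0.00 for BdbZIP73 and -3.07 for BdbZIP88, against -2.60 for BdbZIP10. The value of BdbZIP88 includes -7.74 in NaCl-6h, set against CK3.

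Relative to the median gene the relatives showed the split between the metal samples with CK3 and the rest more clearly than BdbZIP10. BdbZIP73 had -2.51 on average under Mn and Pb and -3.37 under Cu, Zn and Cd, and -1.98 in CK3, against 2.53 in CK1. BdbZIP88 had 1.77 under Mn and Pb, 2.19 under Cu, Zn and Cd and 3.56 in CK3, against -0.42 in CK1. NaCl-6h, which the labels also assign to CK3, had 1.61 for BdbZIP73 and -1.41 for BdbZIP88, near CK1 and the other environmental samples. For BdbZIP10 NaCl-6h had -10.26, against -7.85 in CK3 and -8.61 in CK1. Across the 34 samples r with BdbZIP10 was -0.63 for BdbZIP73 and 0.62 for BdbZIP88, and these values span that split. On the log2 changes of the 27 treated samples r was -0.25 for BdbZIP73 and 0.22 for BdbZIP88.

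**Figure D5:**
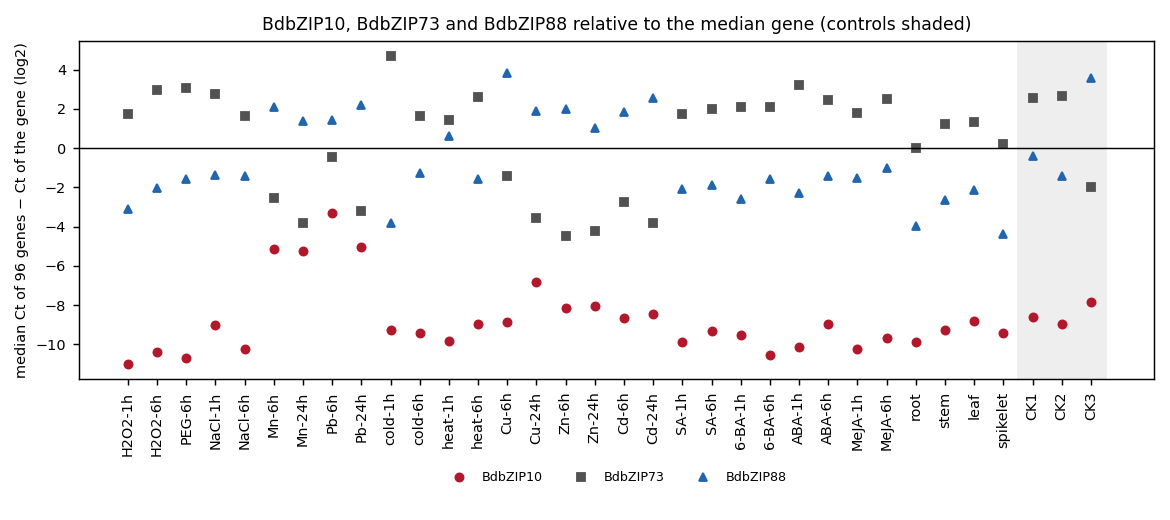
Level relative to the median BdbZIP gene (median Ct of 96 genes minus Ct of the gene) for BdbZIP10, BdbZIP73 and BdbZIP88 in 34 samples, 1 point each, with controls shaded at the right. BdbZIP10 is highest in Mn and Pb (-5.26 to -3.31), while BdbZIP73 is low and BdbZIP88 high in all 10 metal samples and in CK3.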

How the data were processed

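Transcripts of 96 BdbZIP genes and BdGAPD were measured by qPCR in 35 samples, 1 per condition. Of the 3 tables deposited, 1 holds Ct values, a unit of its own with no normalization, from qPCR run for 40 cycles and repeated 3 times by the methods (how repeats were combined is not given in the sources used here). Another, deposited as a ratio, holds normalized expression, and the last holds the authors' fold changes, as the ratio of treated to control. In 28 samples the normalized ratio over its control differed from the fold change by a median over genes of under 0.1 on the log2 scale. The fold changes are the authors' own comparisons and were used only as a key that joins wells to genes: BdbZIP10 shared all 28 with 1 well and at most 1 with the next. Tested on their form alone, they rose with Ct, with no reference gene, in 16 samples (at least 90 of 96 genes within 0.1 on the log2 scale) and fell with Ct in 10. Their values are not reported.

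From Ct, -ΔΔCT was computed with Python 3.11.15, numpy 2.4.6 and pandas 2.3.3. Fold thresholds were 2 and 0.5. The error SD is the root mean square difference of same-primer pairs over 27 treated samples, scaled to a single value. It leaves out the error of BdGAPD and of plants. A Ct gives no count of molecules, so no depth is known. Alternatives changed the control, the reference and the samples. The code was tested on simulated data. Named genes follow a rule: BdbZIP10, BdGAPD, the relatives BdbZIP73 and BdbZIP88, the 3 most and 3 least alike genes, and the genes of intron pattern b by counts. BdbZIP29 was named after its value was seen. The gene, lists and tests were chosen with earlier results of these data known.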

Additional observations from a re-analysis of the deposited data

Results flagged for a closer look

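All 4 Mn and Pb samples had BdbZIP10 above CK3 (log2 change 0.35 to 2.84), while all 6 Cu, Zn and Cd samples had it below CK3 (-1.43 to -0.52). Only the values of Mn-6h, Pb-6h and Cd-6h lay further from 0 than the error SD of 1.37 for late Ct. The mean under Mn and Pb minus the mean under Cu, Zn and Cd was 2.36 on the log2 scale. This difference drew attention because the groups moved in opposite directions from CK3 relative to BdGAPD. The difference was not tested, and the Mn and Pb values were among those that chose the gene. It was 3.48 with the median gene as the reference and 2.57 with no reference gene. Any control common to the 10 samples leaves it at 2.36, although the Cu, Zn and Cd values are above 0 against CK1. With no reference gene the signs against CK3 were mixed within the groups. Cu-24h (1.24), Zn-6h (0.79) and Zn-24h (0.89) then lay above CK3 and Pb-24h (-0.27) below it.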

How the results depend on the processing

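Of 107 alternative values for 12 results, 79 kept to within the error SD, 1.5 times the count or the same side of the threshold. No mean past 2-fold changed sign, while that of Cu, Zn and Cd (-0.86) turned to above 0 with the averaged controls and with CK1. With all 3 controls averaged into 1 control the mean log2 change was 4.24 for Mn and Pb, 1.88 for Cu, Zn and Cd, -2.18 for cold and heat, -2.44 for SA and 6-BA, -2.34 for ABA and MeJA and -1.26 for the organs. With CK1 it was 5.23 for Mn and Pb and 2.88 for Cu, Zn and Cd. With CK3 it was -5.59 for H2O2, PEG and NaCl, -4.93 for cold and heat, -5.18 for SA and 6-BA, -5.08 for ABA and MeJA and -4.00 for the organs. The mean under Mn and Pb minus that under H2O2, PEG and NaCl was 7.08 with any single control for all samples, 3.11 with no reference gene, and 3.34 with CK1 for NaCl-6h (chosen after seeing the data). With the median gene the Mn and Pb mean was 3.17. With no reference gene H2O2, PEG and NaCl had -1.55 and ABA and MeJA -2.11.

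Treated samples at least 2-fold numbered 10 with the mean control or CK1 and 5 with the median gene, against 3, and those at most 0.5-fold numbered 10 with the median gene, against 16. Leaving out 1 sample gave -3.25 to -1.95 for H2O2, PEG and NaCl, 1.04 to 1.87 for Mn and Pb, -1.22 to -1.12 for cold and heat, -0.93 to -0.75 for Cu, Zn and Cd, -1.73 to -1.12 for SA and 6-BA, -0.91 to -0.41 for ABA and MeJA and -0.93 to 0.29 for the organs, where the sign turned without root. With 1 treatment left out, later minus earlier ran from 0.058 (without ABA) to 0.47 (without 6-BA). The exact sign-flip p without 6-BA, 0.0078, was the smallest possible there, since every treatment left was higher later. Over all 13 treatments the mean was -0.16 (exact p = 0.62). It was 0.48 with the median gene as the reference (exact p = 0.14) and -0.12 with no reference gene (exact p = 0.86). Of the 6 most and least alike genes, 3 remained with log2 changes over treated samples, 2 with Spearman's rho, and 2 without Mn and Pb (chosen after seeing the data). The cause of these shifts was not tested beyond what each change of control or reference does by construction.

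The alternative with the deposited normalized values was not run, since in treated samples they carry the authors' own comparisons. No replicate numbers exist to pair samples, since each condition has 1 sample, and only time points were paired within treatments. Late Ct limits the precision of BdbZIP10, and no replicate of any condition exists.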
